A study of Canis lupus familiaris with 21 samples.

Results

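The immediate early genes FOS, FOSB, EGR1, EGR2, EGR3, EGR4, NPAS4, NR4A1, NR4A3 and ARC were taken by their symbols, 10 of the 34981 genes in each of 2 expression tables from dogs. All 10 were found in both tables, and all 10 passed the filter of a mean of at least 10 normalised counts in both. These genes are transcribed within minutes of synaptic activity, when calcium entry through NMDA receptors and voltage-gated channels activates kinases that act on factors already bound to their promoters, CREB, SRF and MEF2. Most of them encode transcription factors, which then drive a later set of genes for synapses and secreted peptides, while ARC acts at the synapse itself. Outside neurons, FOS, EGR1 and NR4A1 also respond to growth factors, inflammation and cell stress. These roles are known mainly from mouse, rat and human cells.

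The RNA came from prefrontal cortex and from extracellular vesicles (EVs, particles enclosed by membrane that cells release) of blood plasma. The dogs were companion dogs in 3 groups: young, old, and dogs with canine cognitive dysfunction (CCD), a syndrome of disorientation and memory loss in aged dogs. The cortex gave 3 libraries per group from polyadenylated RNA, and EVs gave 4 per group from total RNA depleted of ribosomal RNA. Ages, breeds, sex and the way cortex was collected are not given in the labels used here. The labels do not say that each library number is a separate dog, so the p-values measure only the spread between these libraries, which may be in part technical. Cortex and EVs were normalised in separate tables and no test was run across them.

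Cortex libraries held 14.9 to 31.4 M reads and EV libraries 27.5 to 45.0 M, counted from the whole reads that the normalised values give back. CCD cortex was shallower, at 14.9 to 18.9 M, than old cortex at 24.2 to 27.5 M and young cortex at 22.3 to 31.4 M. Of cortex reads 92.1% to 95.8% fell on genes and the rest on families of transposable elements. In EVs only 15.8% to 25.1% did. Young cortex_353, young cortex_377 and CCD cortex_358 stood apart by markers of fibroblasts and meninges, with log2 scores of 3.43, 2.85 and 2.80, where 0 is the mean of the cortex libraries, against -2.27 to -0.65 in the other libraries. All 8 pan-neuronal markers were detected in every cortex library, as any cortex should hold them, with summed normalised counts of 145066 to 227950.

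In cortex the mean level of each of the 10 genes was highest in young dogs. Every one had a lower fitted level in old than in young cortex, with log2 fold changes from -2.88 for EGR2 to -0.75 for EGR3 and a median of -1.32, where the median of all genes tested was 0.03. For 7 of the 10 the 3 old libraries lay wholly below the 3 young libraries, which held for 5.65% of genes. At an unadjusted p under 0.05, 8 of the 10 were lower, against 3.89% of genes. None passed adjustment over the 19010 genes tested: limma called 0% of genes and 0 members, 1282 genes had an unadjusted p under 0.05, edgeR called 0 genes with 1531 under 0.05, and DESeq2 called 216 genes with 1815 under 0.05, none of the 216 a member. At that unadjusted level limma had 542 genes higher and 740 lower in old, edgeR 387 and 1144, and DESeq2 497 and 1318. The smallest adjusted p among the 10 was 0.555 by limma with Benjamini-Hochberg adjustment. In bulk tissue, fewer cells of a type and less RNA per cell cannot be told apart.

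The count of members at an unadjusted p under 0.05 rested on old cortex_253 and young cortex_270. It was 0 without old cortex_253, with a median log2 fold change of -1.02, and 3 without young cortex_270, with a median of -0.97. Over all 19010 genes, 740 were lower at that level in the main fit, 503 without old cortex_253 and 1170 without young cortex_270. Without old cortex_264, old cortex_250 or any filter on low values the count of members was 5, 6 and 2, and with library weights it was 4. The genes lower were 451 and 586 without those libraries, 868 of 34981 without a filter and 943 with weights. All 10 values stayed negative in each of these fits.

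**Figure D1:**
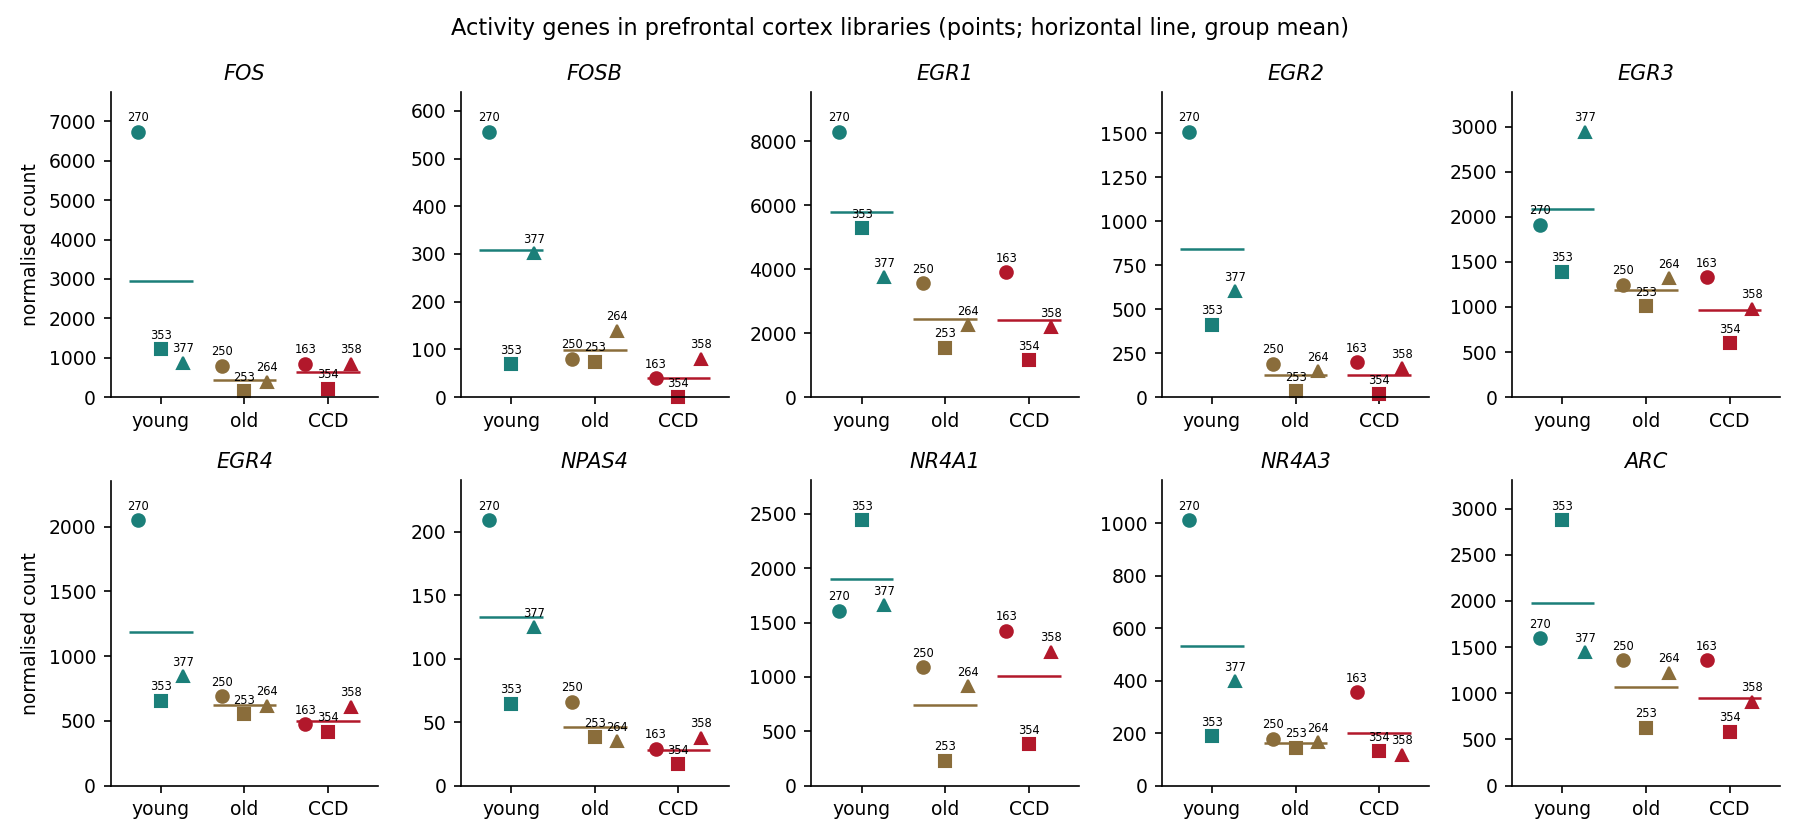
Normalised counts of the 10 genes (vertical axes, linear, each panel with its own scale) in young, old and CCD prefrontal cortex. Points are libraries with their numbers and horizontal lines are group means of 3 libraries; cortex_270 is the highest young library in 7 of the panels, and cortex_354 the lowest CCD library in 9.

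The plot of cortex levels by group shows each library. Below, young values are given in the order cortex_270, cortex_353 and cortex_377, old values in the order cortex_250, cortex_253 and cortex_264, and CCD values in the order cortex_163, cortex_354 and cortex_358, all as normalised counts.

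FOS and FOSB encode leucine zipper proteins that pair with JUN proteins to form the factor AP-1. FOS was 6734, 1218 and 876 in young cortex, 799, 148 and 387 in old cortex, and 847, 214 and 845 in CCD cortex. Every young library lay above every old and every CCD library, but the young mean of 2943 ± 3290 (SD, n = 3) rested on cortex_270, which was 7.69 times cortex_377. The fitted log2 fold change of FOS was -2.43 ± 0.83 (SE) in old against young, adjusted p = 0.569 by limma, and -1.85 ± 0.83 in CCD against young, adjusted p = 0.384. Without young cortex_270 the FOS values were -1.53 ± 0.72 and -0.95 ± 0.72. FOSB, the source of the stable splice form that accumulates with repeated stimulation in mouse brain, was 556, 69.5 and 302 in young, 81.0, 74.3 and 139 in old, and 40.3, 0 and 80.5 in CCD. Its groups overlapped in every comparison, and young cortex_353 lay below all 3 old libraries. The library with no FOSB read, CCD cortex_354, was also the shallowest, and 3 reads there would be 4.63 normalised counts. The log2 fold change of FOSB in CCD against old, -2.67 ± 1.36 with a 95% interval from -5.68 to 0.34, moved with the treatment of that 0: it was -1.89 with a pseudocount of 5, -1.20 in edgeR and -0.71 ± 0.77 without cortex_354. Against young, FOSB was at -1.26 ± 1.36 in old and -3.93 ± 1.36 in CCD, where leaving out a library gave -2.11 to -0.62 and -5.15 to -1.98. Splice forms of FOSB are not separated in these tables.

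The EGR proteins are zinc finger factors that bind the same GC-rich element; EGR1 (also known as Zif268) and EGR3 are needed in mice for lasting synaptic strengthening and memory. EGR1 was 8302, 5293 and 3751 in young, 3560, 1542 and 2248 in old, and 3909, 1159 and 2186 in CCD. Old lay wholly below young, while CCD cortex_163 exceeded young cortex_377. The log2 fold change of EGR1 was -1.25 ± 0.45 in old against young, adjusted p = 0.611 by limma.

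EGR2, which in peripheral nerve also controls myelination by Schwann cells, was 1507, 411 and 601 in young, 191, 32.4 and 146 in old, and 197, 15.4 and 166 in CCD. The lowest young library held more than the highest of the other 6. Its log2 fold changes were -2.88 ± 0.95 in old against young and -3.14 ± 0.95 in CCD against young, the second with a 95% interval from -5.23 to -1.06 and an adjusted p of 0.363 by limma. These values were smaller in size when the lowest library was left out, at -2.10 ± 0.96 without old cortex_253 and -1.99 ± 0.74 without CCD cortex_354. Among the 10 genes, EGR2 had the most negative value in old against young.

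EGR3 was 1911, 1393 and 2943 in young, 1245, 1011 and 1317 in old, and 1333, 600 and 980 in CCD, so that young lay above both other groups. Its log2 fold change was -0.75 ± 0.33 in old and -1.11 ± 0.33 in CCD, each against young, and the former was -0.46 ± 0.31 without young cortex_377. EGR4 was 2050, 656 and 845 in young, 690, 552 and 619 in old, and 476, 418 and 611 in CCD. Young and old overlapped for EGR4 through cortex_353 and cortex_250, whereas CCD lay wholly below young, with a log2 fold change of -1.07 ± 0.36. That value was -0.59 ± 0.24 without young cortex_270, and the one of old against young went from -0.76 ± 0.36 to -0.27 ± 0.24. The old libraries were tight for EGR4, with an SD of 68.9 about a mean of 620, and the young were not, with an SD of 756 about 1184.

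NPAS4 is a factor of the bHLH-PAS class that responds to calcium entry and, in mouse neurons, shapes inhibitory synapses; it pairs with ARNT or ARNT2. It was 209, 64.5 and 125 in young, 66.0, 38.1 and 35.1 in old, and 29.0, 17.0 and 37.8 in CCD. Only old cortex_250 reached the lowest young library, and no CCD library did. Its log2 fold change in CCD against young, -2.13 ± 0.52 with a 95% interval from -3.28 to -0.97, had the smallest unadjusted p of the 10 genes, 0.00192, and an adjusted p of 0.363 by limma. DESeq2 on the recovered reads was the only one of the 3 tools to call it, at -2.17 with an adjusted p of 0.0181. In CCD cortex NPAS4 rested on 11 to 31 reads a library.

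NR4A1 and NR4A3 are orphan nuclear receptors, factors that act without a known physiological ligand. NR4A1 was 1610, 2441 and 1660 in young, 1087, 230 and 913 in old, and 1425, 379 and 1231 in CCD. Here cortex_270 was the lowest young library, where for 7 of the other genes it was the highest, and young lay above all old and CCD libraries. The log2 fold change of NR4A1 was -1.61 ± 0.60 in old against young, adjusted p = 0.625, and -1.10 ± 0.60 in CCD against young, adjusted p = 0.438, both by limma. They were -0.91 ± 0.50 without old cortex_253 and -0.50 ± 0.57 without CCD cortex_354. NR4A3 was 1012, 188 and 398 in young, 179, 144 and 165 in old, and 356, 131 and 118 in CCD. Old lay below young by a narrow margin, 179 against 188, and CCD cortex_163 fell within the young range. The log2 fold changes of NR4A3 against young, -1.38 ± 0.57 in old and -1.26 ± 0.57 in CCD, were -0.75 ± 0.50 and -0.63 ± 0.50 without young cortex_270. NR4A2, the remaining receptor of this family, is needed by midbrain dopamine neurons in mice and was not chosen as a member. Its mean was 550 ± 408 in young, 515 ± 126 in old and 476 ± 66.6 in CCD (SD, n = 3 each), a log2 fold change of 0.12 ± 0.42 in old against young.

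ARC is carried as RNA into dendrites and promotes the removal of AMPA-type glutamate receptors from the synapse; the rat protein can form capsids that enclose its own RNA. It was 1599, 2873 and 1445 in young cortex, 1356, 626 and 1221 in old, and 1357, 586 and 908 in CCD. The highest old and CCD libraries were close to the lowest young one but below it. The log2 fold change of ARC was -0.89 ± 0.39 in old against young, 95% interval from -1.75 to -0.04, and -1.07 ± 0.39 in CCD against young, 95% interval from -1.92 to -0.21. Both missed the adjusted threshold, at 0.713 and 0.363 by limma. Without old cortex_253 the value of old against young was -0.55 ± 0.39.

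Old and CCD cortex overlapped for all 10 genes, where 34.5% of genes tested had groups that did not overlap, 22.6% lower and 11.9% higher in CCD. Of the 10 values 7 were negative and 3 positive, where 57.1% of all genes were negative, with a median of -0.22 against -0.10 for all genes. FOS, NR4A1 and NR4A3 were the positive ones, at 0.58 ± 0.83, 0.51 ± 0.60 and 0.13 ± 0.57, and with EGR2 they had the group order young, CCD, old by mean. The other 6 had the order young, old, CCD. The 95% intervals are wide: that of EGR1, at -0.11, ran from -1.10 to 0.89, and that of EGR2, at -0.27, from -2.35 to 1.82. Limma called 0% of genes in this comparison with 2815 at an unadjusted p under 0.05, none of them a member; edgeR called 0 with 2472, and DESeq2 160 with 2980. The median over the 10 genes turned positive without CCD cortex_354, to 0.24, or without old cortex_250, to 0.12. These are the libraries with the lowest level in CCD for 9 genes and the highest level in old for 8. In edgeR and DESeq2, which scale libraries in their own way, 5 of the values were positive and 5 negative, with medians of 0.0016 and 0.0072. The lean of all genes turned with them: at an unadjusted p under 0.05 limma had 758 higher and 2057 lower in CCD, edgeR 1318 and 1154, and DESeq2 1641 and 1339.

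CCD against young shares its young libraries with old against young, so the 2 sets of values are not separate evidence. All 10 values were negative, with a median of -1.30 against -0.09 for all genes. Groups did not overlap for 7 genes, all lower in CCD, against 8.22% of genes, and 8 had an unadjusted p under 0.05, against 8.74% of genes. Without CCD cortex_354 that count was 4, and without young cortex_270 it was 5. Over all genes, 1661 were lower at that level in the main fit, 852 without CCD cortex_354 and 2251 without young cortex_270. Limma called 0% of genes, with 2447 at an unadjusted p under 0.05; edgeR called 0 with 2460, and DESeq2 called 208 with 2809, NPAS4 among the 208. Of the genes under 0.05 limma had 786 higher and 1661 lower in CCD, and 1241 and 1115 after quantile normalisation.

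The number of genes with separate groups moved with scaling. With each library centred on its median gene, 5 rather than 7 separated in old against young (FOS, EGR1, EGR2, NR4A1 and ARC) and 4 rather than 7 in CCD against young (EGR2, EGR4, NPAS4 and NR4A1). NPAS4 then also separated CCD from old, where 34.5% of genes tested did so in either direction under the main scaling. Scaling to reads on genes, a choice made after seeing the data, gave 7 and 6. The share of all genes with separate groups was not counted under these scalings, so the member counts have no background beside them.

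Leaving out the 3 libraries rich in meningeal markers left cortex_270 as the sole young library, assumed to vary like the other groups. The medians were then -2.02 in old and -2.21 in CCD, each against young. In that fit all 10 values were negative in both comparisons. The members of smallest p were FOS at -4.23, EGR4 at -1.73 and NR4A3 at -2.64 in old against young. In CCD against young they were EGR4 at -2.20 and NPAS4 at -3.18. These values rest on the young library in which most of the 10 genes are highest.

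**Figure D2:**
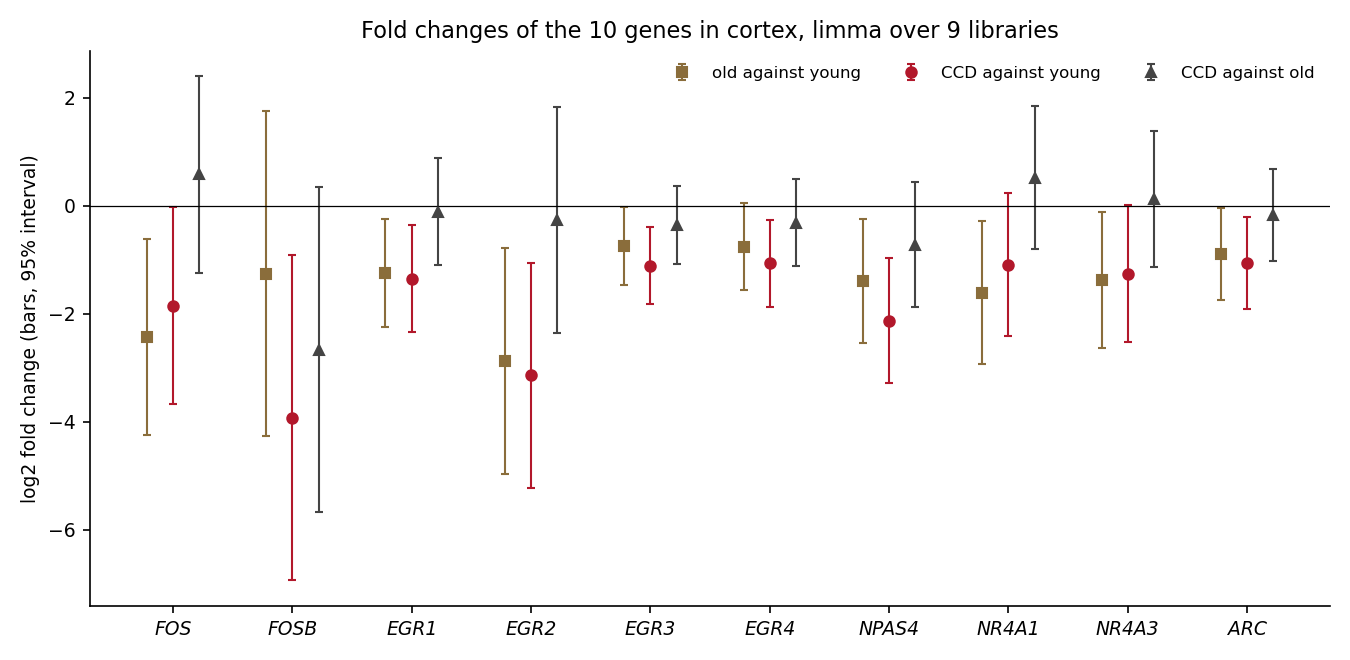
Fitted log2 fold changes (vertical axis) of the 10 genes (horizontal axis) in cortex, from the limma model over 9 libraries; markers are estimates and bars 95% intervals without adjustment. The estimates of old against young and of CCD against young lie below 0 for all 10 genes. Their bars cross 0 for FOSB and EGR4 in old against young and for NR4A1 and NR4A3 in CCD against young, and those of CCD against old cross it for all 10.

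The plot of fold changes sets the 3 contrasts side by side. The intervals of CCD against old cover 0 for every gene, and they are widest for FOSB and EGR2.

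The 10 genes varied together from library to library. Over the 45 pairs of genes and the 9 cortex libraries, Pearson's r of the log2 levels ran from 0.44 for EGR4 with ARC to 0.94 for EGR1 with EGR2, with a median of 0.79. After subtracting group means it ran from -0.12, again EGR4 with ARC, to 0.90 for NR4A1 with ARC, with a median of 0.60, and 43 pairs stayed positive. Such correlations share libraries, depth and scaling, those of FOSB include its value of 0 in CCD cortex_354, and all are given as a description. EGR2 followed the mean of the other members most closely, at r = 0.99, and ARC least, at 0.75. Within groups the same libraries were low for most of the genes: old cortex_253 was the lowest old library for 9 of 10 and CCD cortex_354 the lowest CCD library for 9 of 10, while cortex_270 was the highest young one for 7. The others peaked in cortex_353 (ARC and NR4A1) or cortex_377 (EGR3).

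Likeness was ranked among the tested genes whose symbol does not begin with LOC. Outside the members, NPTX2 was most like the mean standardised pattern of the 10 over the 9 libraries, at r = 0.961. After it came TRIM16 at 0.937, TRIB1 at 0.935, CDKN1A and HERPUD1 at 0.932 and SPICE1 at 0.929. NOXRED1 and PRRC1 were at 0.924, JMJD6 at 0.923 and MYO10 at 0.922. The median r of all genes was 0.06, and 0.2% of genes exceeded 0.9. NPTX2 encodes a secreted pentraxin that gathers AMPA receptors at synapses on inhibitory neurons. Its mean was 2270 ± 959 normalised counts in young, 610 ± 266 in old and 494 ± 246 in CCD (SD, n = 3 each), and its log2 fold change in old against young was -1.91 ± 0.51. Taken gene by gene, FOS was most like TEAD4 (0.957) and JUNB (0.942), FOSB like ZNF382 (0.973) and PSME4 (0.972), and EGR1 like IGF2BP2 (0.944) and its fellow member EGR2 (0.942). For FOSB these r include the value of 0 in CCD cortex_354, and r without that library was not computed. EGR2 was most like NPTX2 (0.955) and HAPLN3 (0.946), EGR3 like TTL (0.978) and HIVEP2 (0.972), and EGR4 like ODC1 (0.975) and ALDH18A1 (0.964). For NPAS4 these were CTNNAL1 (0.955) and MIDN (0.952), and for NR4A1 SIK1 (0.968) and DUSP6 (0.967). NR4A3 was most like STC1 (0.939) and C25H2orf72 (0.938), and ARC like CACTIN (0.956) and SPNS1 (0.914).

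Genes around the 10 in the pathway were read from lists chosen by role, in the limma fit alone. Over all genes tested in cortex, 46.1% of values were negative in old against young and 57.1% in CCD against old. The lean of all genes in CCD against old turned in edgeR and DESeq2, as given above. Upstream of them, 29 of 30 receptors, kinases and resident factors were measured, and none was called in any comparison. In old against young their median was 0.12, with 0 at an unadjusted p under 0.05. CREB1, the factor that recruits coactivators to FOS and ARC, had a log2 fold change of 0.28 ± 0.28, SRF, the factor at serum response elements, -0.46 ± 0.23, and MEF2C -0.03 ± 0.23. In CCD against old the median of this list was -0.44, and 25 of 29 values were negative. The 3 with the smallest p were PPP3CA, the calcineurin catalytic subunit, at -1.69 ± 0.51, GRIN1, the obligate NMDA receptor subunit, at -0.96 ± 0.31, and the kinase RPS6KA5 at -0.87 ± 0.34. Their adjusted p-values by limma were 0.29, 0.29 and 0.308.

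Dimer partners and feedback genes, 22 of 23 measured, had a median of -0.48 in old against young with 18 negative and 2 at an unadjusted p under 0.05. These were JUNB, an AP-1 partner, at -1.21 ± 0.44, and DUSP6, a phosphatase that turns off ERK, at -0.99 ± 0.40. JUN at -0.39 ± 0.29, the EGR corepressor NAB2 at -0.08 ± 0.21 and the NPAS4 partner ARNT2 at 0.24 ± 0.31 had smaller values. Later activity genes, 25 of 25 measured, had a median of -0.15 in old against young and 3 lower at an unadjusted p under 0.05. INHBA, a subunit of activin, was at -2.20 ± 0.33 with an adjusted p of 0.196, NPTX2 at -1.91 ± 0.51 and the opioid precursor PDYN at -1.87 ± 0.54. BDNF, the growth factor whose activity promoters bind CREB and NPAS4 in mouse, was at 0.10 ± 0.32. In CCD against old, 21 of the 25 later genes were negative with a median of -0.52, led by the prohormone convertase PCSK1 at -1.12 ± 0.37, the potassium channel KCNA1 at -2.37 ± 0.85 and the scaffold HOMER1 at -0.75 ± 0.28. None of these was called.

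Immediate early genes that many cell types induce under stress or handling, 28 of 28 measured, had a median of -0.83 in old against young; 26 were negative and 9 had an unadjusted p under 0.05, none called. The smallest p-values were those of BTG2 at -1.66 ± 0.48, ZFP36 at -2.30 ± 0.68 and KLF4 at -2.13 ± 0.64, an antiproliferative gene, an mRNA decay factor and a zinc finger factor of endothelium and epithelium. The score of this list, taken as the median of its log2 levels after subtracting each gene's mean over the 9 libraries, was 1.13 in young cortex_270, the library highest for most of the 10 genes, and -0.67 in CCD cortex_354, the lowest. What such induction contributed to the levels of the 10 genes was not tested. Partners of ARC in AMPA receptor trafficking, 14 of 14 measured, had a median of 0.28 in old against young, where 12 were positive and ARC itself was at -0.89. In CCD against old 12 of 14 were negative, with CACNG8 at -1.56 ± 0.41, NSF at -0.77 ± 0.28 and the receptor subunit GRIA2 at -0.85 ± 0.33.

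**Figure D3:**
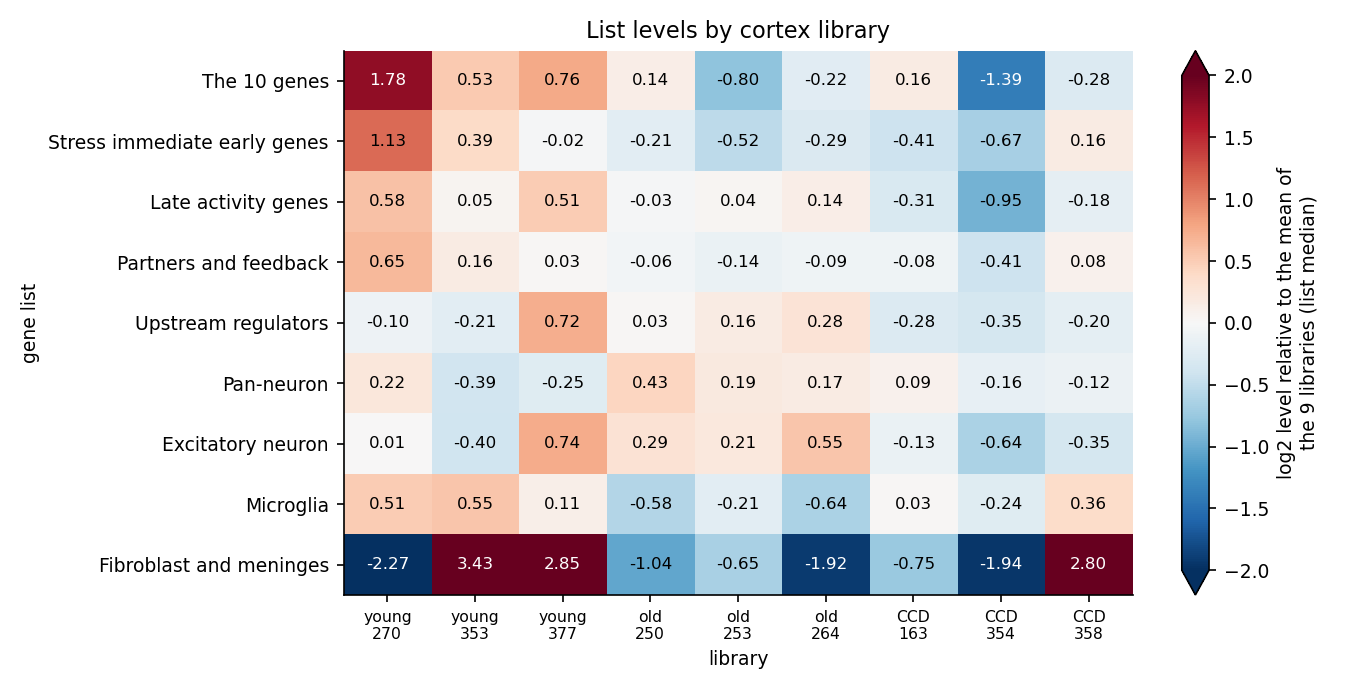
Level of each gene list (rows) in each cortex library (columns), as the list's median of log2 levels after each gene's mean over the 9 libraries was subtracted; red is above and blue below 0, with colours ending at 2 in either direction. The 10 genes run from 1.78 in young cortex_270 to -1.39 in CCD cortex_354, the pan-neuronal markers from -0.39 to 0.43 and the excitatory neuron markers from -0.64 to 0.74.

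The heat map of list levels sets the 10 genes beside markers of cell types. Pan-neuronal markers had scores of -0.39 to 0.22 in young, 0.17 to 0.43 in old and -0.16 to 0.09 in CCD cortex. Excitatory neuron markers had scores of -0.40 to 0.74, 0.21 to 0.55 and -0.64 to -0.13 in the same order. The score of the 10 genes less the pan-neuronal score was 0.92 to 1.56 in young, -0.99 to -0.29 in old and -1.23 to 0.07 in CCD. This difference is a description and does not correct for neuron content, whose part was not tested. The medians of the excitatory markers were 0.42 in old against young, -0.77 in CCD against old and -0.63 in CCD against young. Negative were 12 of 12 in CCD against old and 9 of 12 in CCD against young, with at most 1 of the 12 at 0 in a library. Inhibitory neuron markers had medians of 0.03, -0.33 and -0.38 in the same order, with 7 of 9 negative in CCD against young. CCD cortex_354 had the lowest score of both lists among the cortex libraries, -0.64 and -0.99. Microglial markers had negative values in old against young in 12 of 12 cases with a median of -0.89, and their summed level was 8090 to 18234 normalised counts in young, 4951 to 8348 in old and 6571 to 10741 in CCD. Astrocyte markers had 5 of 7 negative in old against young with a median of -0.51, and endothelial markers 6 of 7 with a median of -0.68. Oligodendrocyte markers, 5 of 7 measured, had 5 positive with a median of 1.03 there, and a median of 0.84 in CCD against young. Their summed level was 35137 to 215930 in young, 198096 to 273451 in old and 244899 to 630402 in CCD, highest in cortex_354. The part of these cell types in the levels of the 10 genes was not tested.

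Markers of fibroblasts and meninges had negative values in old against young in 14 of 14 cases, with summed levels of 1299 to 58129 in young, 1612 to 2937 in old and 1571 to 31677 in CCD. The young library with the highest level of most of the 10 genes, cortex_270, had the lowest score of these markers of all 9, -2.27. Mitochondrially encoded genes, 6 of 13 above the filter and the other 7 at 0, summed to 1367745 to 1959919 in CCD, 650134 to 994422 in old and 561612 to 1249020 in young cortex. Their part in the difference between CCD and the other groups was not tested.

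The genes beside the 10 on the chromosome were read as a comparison. The nearest protein-coding neighbours in the RefSeq annotation were taken among measured genes, with symbols beginning with LOC left out. Of these 20 neighbours, 11 were negative in old against young, with a median of -0.03 and 1 at an unadjusted p under 0.05. That gene was TAMALIN, next to NR4A1, which encodes a scaffold of metabotropic glutamate receptors, at -0.96 ± 0.20. In CCD against young 13 were negative, with a median of -0.22 and 2 under 0.05. EGR2 and EGR3 each overlap a long noncoding RNA, LOC111095464 at 0 to 23.8 and LOC119865948 at 21.4 to 169 normalised counts. The latter was at -0.75 ± 0.49 in old and -1.62 ± 0.49 in CCD, each against young, beside -0.75 ± 0.33 and -1.11 ± 0.33 for EGR3; its unadjusted limma p in CCD against young was 0.00712. Whether counting used strand is not given in the sources used here, so reads of each pair cannot be told apart.

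In plasma EVs all 10 genes were detected in all 12 libraries, at 47.0 to 485 normalised counts. Detection there says little about their source. Of the 5337 genes with 0 reads in all cortex libraries, 69.1% passed the EV filter, and 90.7% of all genes passed it in EVs against 54.3% in cortex. Whether these reads come from spliced RNA, other RNA or DNA cannot be told apart in gene counts.

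Group means in EVs lay close together and every neighbouring pair of groups overlapped for all 10 genes. In CCD against old EVs all 10 values were negative, with a median of -0.32 and a range of -0.61 for NPAS4 to -0.02 for FOS, but 80.0% of all genes were negative as well and their median was -0.27. Limma called 0% of genes and no member (1896 genes at an unadjusted p under 0.05, 0 members), edgeR called 0 (1032) and DESeq2 0 (1227). None of the 10 separated CCD from old, against 5.08% of genes lower. With libraries centred on the median gene the median of the 10 was -0.06, with 6 negative. CCD against young gave 10 negative values with a median of -0.31, against -0.17 for all genes. No member separated there, against 2.71% of genes, and limma called 0% (904 at an unadjusted p under 0.05), edgeR 0 (521) and DESeq2 1 gene (632), not a member. Old against young gave 4 negative and 6 positive values with a median of 0.04 against 0.09 for all genes. None separated, against 0.917% of genes, and limma called 0% (394), edgeR 0 (591) and DESeq2 0 (775).

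**Figure D4:**
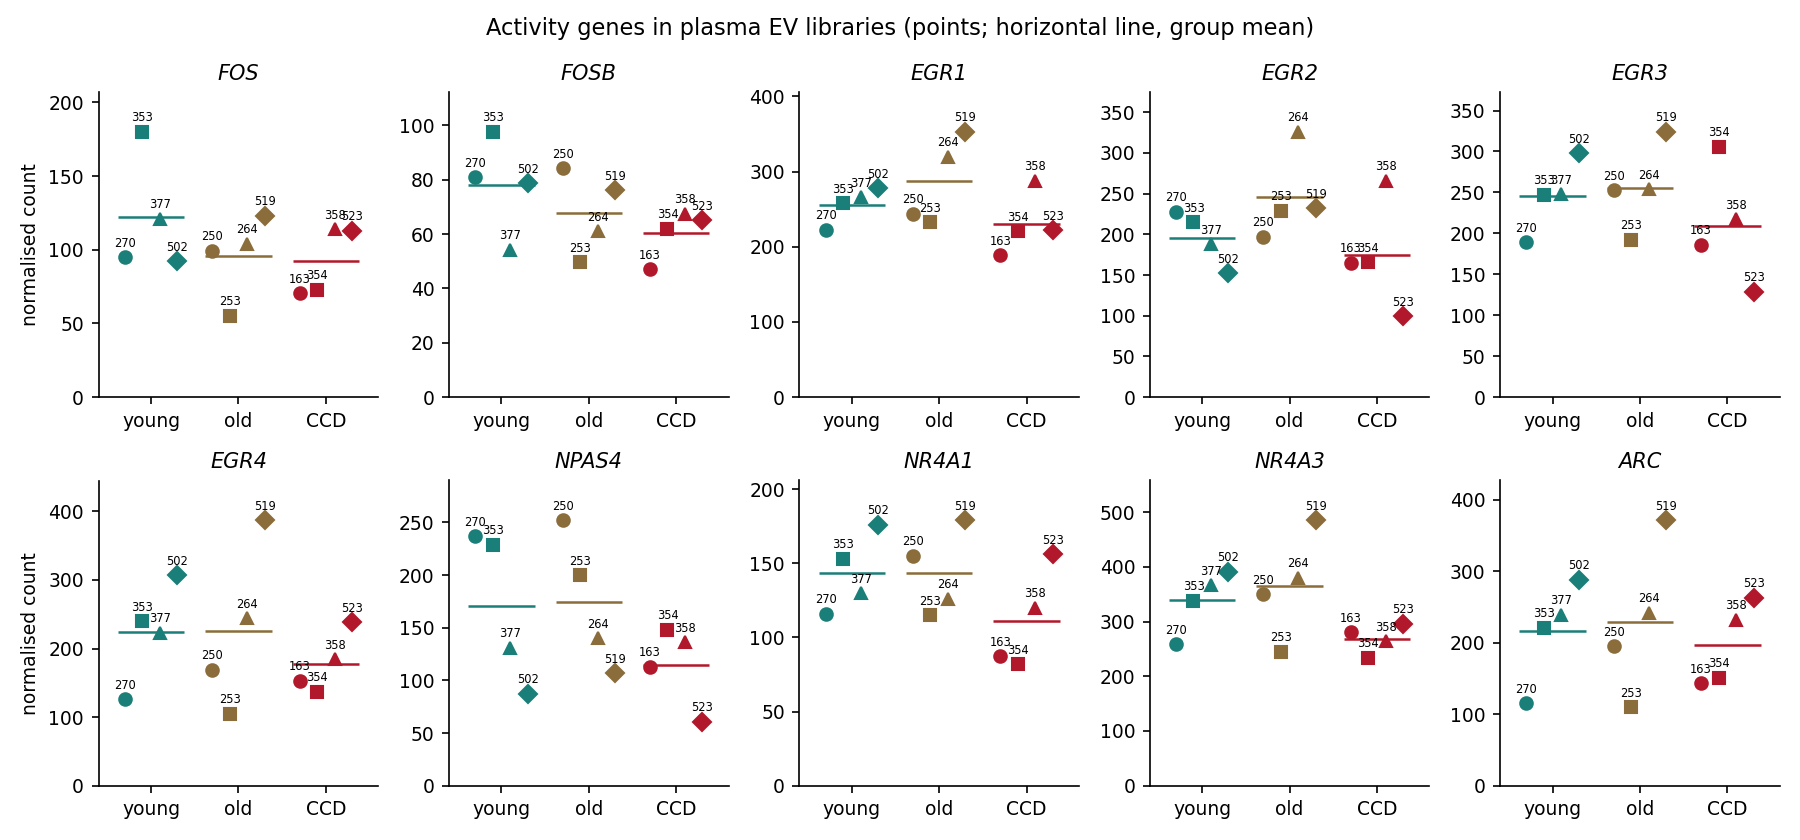
Normalised counts of the 10 genes (vertical axes, linear, each panel with its own scale) in young, old and CCD plasma EV libraries. Points are libraries with their numbers and horizontal lines are group means of 4 libraries; the groups overlap in every panel.

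The plot of EV levels by group gives every library. ARC was 115, 221, 239 and 288 normalised counts in young EV_270, EV_353, EV_377 and EV_502, 195, 110, 242 and 371 in old EV_250, EV_253, EV_264 and EV_519, and 143, 151, 232 and 263 in CCD EV_163, EV_354, EV_358 and EV_523. The spread within young or old was wider than any difference between group means, which were 216 ± 72.8, 229 ± 109 and 197 ± 59.8 (SD, n = 4 each). The log2 fold change of ARC in CCD against old was -0.13 ± 0.37, with a 95% interval from -0.93 to 0.66. EGR4, in the same order, was 126, 240, 223 and 307 in young, 169, 105, 244 and 387 in old, and 153, 137, 184 and 238 in CCD. As for ARC, EV_270 and EV_253 were the lowest of their groups and EV_502, EV_519 and EV_523 the highest.

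NPAS4 ran the other way, at 237, 229, 131 and 87.3 in young, 252, 200, 140 and 107 in old, and 113, 148, 136 and 60.9 in CCD EVs. Here EV_502, EV_519 and EV_523 were the lowest of their groups. Its log2 fold change in CCD against old, -0.61 ± 0.38 with a 95% interval from -1.43 to 0.21, was the most negative of the 10 in EVs, adjusted p = 0.777 by limma. EGR2 was 228, 215, 188 and 152 in young, 197, 229, 326 and 232 in old, and 165, 166, 266 and 99.7 in CCD, a log2 fold change of -0.55 ± 0.28 in CCD against old. The remaining genes ranged from 47.0 to 97.6 for FOSB, 55.3 to 180 for FOS, 82.1 to 179 for NR4A1, 129 to 324 for EGR3 and 234 to 485 for NR4A3. EGR1 had group means of 256 ± 23.8 in young, 287 ± 58.4 in old and 230 ± 41.6 in CCD (SD, n = 4 each).

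**Figure D5:**
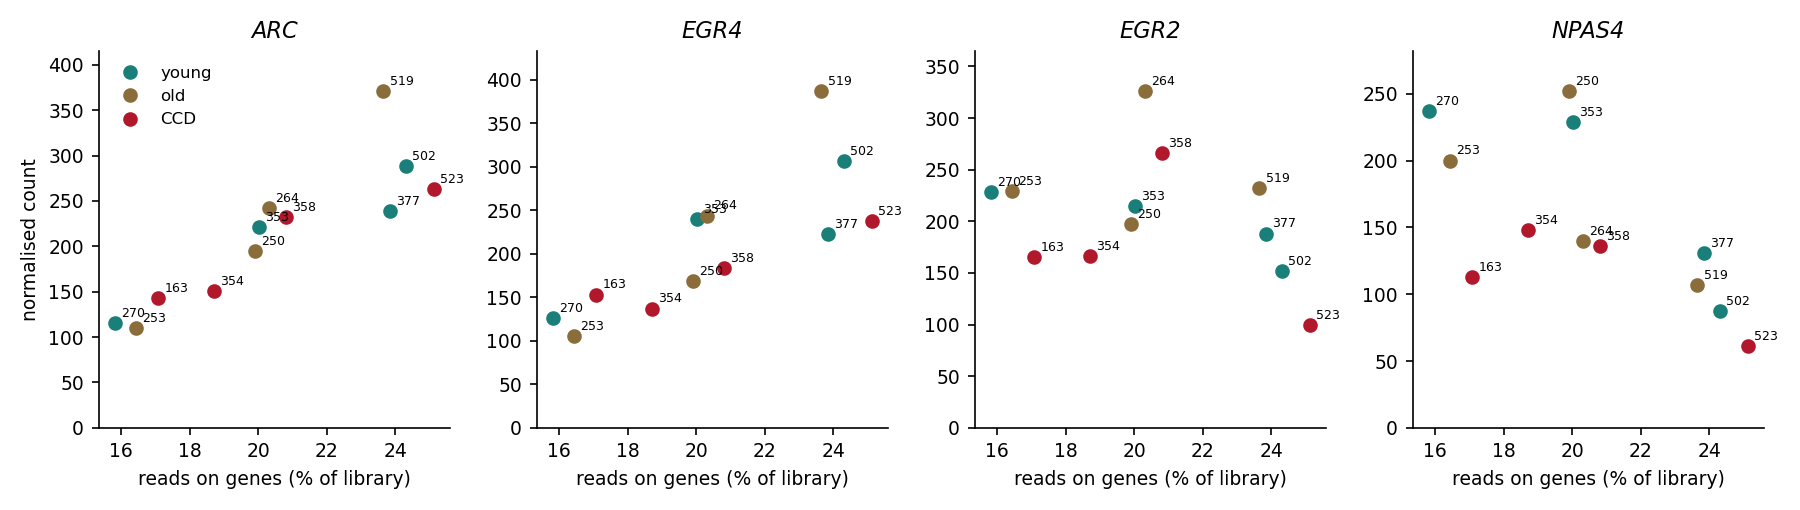
Normalised counts of ARC, EGR4, EGR2 and NPAS4 (vertical axes, linear) against the percentage of a library's reads that fell on genes (horizontal axes) in the 12 EV libraries, coloured by group. ARC and EGR4 are lowest in the libraries of smallest gene share, EV_270 and EV_253, and NPAS4 is lowest in EV_523, the library of largest gene share.

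The plot against gene share sets the levels beside a property of the library. The share of reads on genes was 15.81% in EV_270 and 16.44% in EV_253, where ARC was 115 and 110. It was 23.66% in EV_519, 24.32% in EV_502 and 25.13% in EV_523, where ARC was 371, 288 and 263 and NPAS4 107, 87.3 and 60.9. The part of this share in the EV levels was not tested. Set side by side with cortex over the 9 numbers that have both libraries, the number highest in cortex was the highest in EVs for 0 of the 10 genes. EV_270, whose number is highest in young cortex for 7 genes, held the lowest young EV level for 6, but these are not the same genes. EGR1, EGR4 and NR4A3 are in both sets. EGR2 and NPAS4, highest of young in cortex_270, were also highest of young in EV_270, at 228 and 237. For 8 genes cortex_253 was the lowest old cortex library and EV_253 the lowest old EV library.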

How the data were processed

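RNA-seq of 9 cortex and 12 plasma EV libraries of dogs was used. The authors deposited 1 table per tissue of signal values per gene, named normalised counts, made with STAR and DESeq2 per the submitters' processing notes; the tools' versions, the build, the annotation and the program that counted reads are not given in the sources used. Within a table all libraries have the same total. Dividing each value by a library factor gave whole reads for 100% of values (tolerance 0.01 reads), which gave the depths. For cortex_353 the factor is 1.0078, so there the check says little for values of 1 read. RefSeq (UU_Cfam_GSD_1.0) served for gene names and neighbours alone.

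Genes with a mean of at least 10 normalised counts were tested as log2(value + 1), 19010 in cortex and 31728 in EVs. The test was limma 3.58.1 in R 4.3.3, fitted to the 3 groups together with a mean-variance trend, adjusted by Benjamini-Hochberg over all genes tested at 0.05. Fold changes are on that log2 scale, where the added 1 weighs most on low genes. It need not understate them: FOSB, with a 0 in cortex_354, was at -2.67 in CCD against old and at -1.20 in edgeR. Intervals are 95% and unadjusted. edgeR 4.0.16 and DESeq2 1.42.0 were run on recovered reads. The fit was checked on simulated counts, drawn separately for each gene apart from depth, with genes changed in CCD alone. Only CCD against old was read there, so that check does not cover old against young or other effects of a library. Tables were made in Python 3.11.15 with pandas 2.3.3 and numpy 2.4.6.

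The members, gene lists and rule for named genes were chosen with earlier results of these data known. The rule names all 10 members, the 10 genes most like their mean pattern and the 2 most like each member, symbols beginning with LOC left out. From each pathway list it takes the 3 of smallest p in old against young and in CCD against old, with 12 genes always taken. Not every gene it takes is named. Alternatives were a pseudocount of 5, no filter, a mean of at least 50, quantile normalisation, median centring, the compared groups alone, library weights, edgeR, DESeq2, each library left out in turn, and the 3 libraries of high meningeal level left out. Scaling to reads on genes, and the recount of separate groups under 2 scalings, were added after seeing the data.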

Additional observations from a re-analysis of the deposited data

How the results depend on the processing

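Between them the alternatives changed no sign of a member in old against young or CCD against young in cortex, and none called a member in CCD against old. No paired analysis was possible because the groups compared within a tissue share no library number, and the 2 tissues are not compared by a test. With 3 libraries a group the spread between libraries limits the precision in cortex, most for FOSB and EGR2 by their standard errors, and CCD cortex was the shallowest.

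Genes called by limma numbered 0 in every comparison; without a filter they were 10 in CCD against old, 9 in old against young and 6 in CCD against young in cortex. DESeq2 called 160, 216 and 208 there and 1 gene in EV CCD against young. In cortex CCD against old a fit of the compared groups alone called 1778 and library weights 1632. Without the 3 libraries of high meningeal level 2922, 617 and 647 genes were called. Leaving out 1 library gave 0 to 41 genes in cortex old against young (41 without young cortex_377, 2 without young cortex_270), 0 to 1 in cortex CCD against young, and 0 to 1 in EV CCD against old and old against young. The cause was not tested in any of these cases.

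Leaving out the 3 meningeal libraries left 1 young library. The median of the 10 genes was then -2.02 in old against young and -2.21 in CCD against young. The members of smallest p in that fit were FOS at -4.23, EGR4 at -1.73 and NR4A3 at -2.64 in the former, and EGR4 at -2.20 and NPAS4 at -3.18 in the latter. With all libraries, DESeq2 called 1 of the 10 genes, NPAS4 in CCD against young at -2.17. Centring on the median gene gave separate groups for 1 of the 10 genes in CCD against old and for 4 in CCD against young. The share over all genes was not counted there.

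In cortex CCD against old, EGR1 was 0.04 after quantile normalisation and 0.08 in edgeR and DESeq2, where EGR2 was 0.12. Leaving out 1 library gave -0.52 to 0.13 for ARC, -0.54 to 0.34 for EGR1, -1.04 to 0.89 for EGR2, -0.06 to 1.24 for FOS, -0.19 to 1.11 for NR4A1 and -0.38 to 0.41 for NR4A3, and, with no change of sign, -3.89 to -0.71 for FOSB, -0.63 to -0.05 for EGR3, -0.47 to -0.20 for EGR4 and -0.97 to -0.42 for NPAS4.

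In EV CCD against old the median of the 10 genes was -0.04 after quantile normalisation, -0.06 after centring, -0.05 in edgeR and -0.06 in DESeq2. In those 4 settings FOS was 0.28, 0.24, 0.25 and 0.24, FOSB 0.13, 0.11, 0.12 and 0.10, and ARC 0.15, 0.12, 0.08 and 0.07; EGR4 was 0.07 and 0.04 in the first pair. Leaving out 1 library gave -0.44 to 0.14 for ARC, -0.53 to 0.09 for EGR4 and -0.26 to 0.12 for FOS. In EV CCD against young the median was -0.06 after quantile normalisation. EGR1 was 0.07 and 0.01 after quantile normalisation and centring, EGR2 0.01 in edgeR and DESeq2, and ARC 0.15, 0.07, 0.01 and 0.01 in the 4 settings. Leaving out 1 library gave -0.38 to 0.06 for ARC and -0.47 to 0.003 for EGR2.

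In EV old against young the values lay near 0. ARC was -0.0022 after quantile normalisation, -0.05 after centring, -0.25 with library weights, -0.07 in edgeR and -0.06 in DESeq2. EGR3 was -0.03 after centring, -0.02 with weights, -0.08 in edgeR and -0.07 in DESeq2. NR4A3 was -0.0024, -0.06, -0.02 and -0.01 in those 4 settings. NPAS4 was -0.02 after centring and -0.0014 in edgeR. NR4A1 was 0.05 after scaling to reads on genes and 0.04 with weights, and FOSB 0.10 with weights. Leaving out 1 library gave -0.24 to 0.34 for ARC, -0.07 to 0.18 for EGR3, -0.39 to 0.24 for EGR4, -0.21 to 0.28 for NPAS4, -0.12 to 0.10 for NR4A1 and -0.07 to 0.26 for NR4A3.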

Other observations

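In EVs the pathway lists gave values close to those of all genes. Later activity genes, 25 of 25 tested, had a median of -0.39 in CCD against old with 22 negative, and immediate early genes of stress, 28 of 28 tested, a median of -0.20 with 21 negative, where the median of all genes was -0.27. In old against young their medians were 0.01 and 0.02. No gene of either list was called by limma. Scores of the stress list ran from -0.67 in young EV_270 to 0.82 in old EV_519, and those of the 10 genes from -0.39 in CCD EV_163 to 0.47 in old EV_519.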
